A study of Mus musculus with 54 samples.

Results

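The genes described here encode 9 chains of the haematopoietic cytokine receptors in a mouse pro-B cell line: Il3ra, Csf2ra, Csf2rb, Csf2rb2, Epor, Csf3r, Il2ra, Il2rg and Il4ra. They were picked by name as receptors of interleukin-3 (IL-3), GM-CSF, erythropoietin (Epo), G-CSF, IL-2 and IL-4, and each was read from the probe set that the array annotation lists with exactly 1 gene symbol. Of the 9 genes, 8 had such a probe set among the 19920 genes measured at gene level. Il2rg had none and was read as the mean of its 9 exon-level probe sets, among 20352 genes measured that way. Exon-level probe sets covered all 9 genes, 85 probe sets in all, and served as a check on the 8 genes read at gene level.

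The study profiled 9 groups of Ba/F3-gp130 cells, 3 arrays a group and 27 in all. These mouse cells carry gp130 and depend on Hyper-IL-6, a designer cytokine in which interleukin-6 is joined to its soluble receptor so that gp130 is engaged directly. All cells were grown with Hyper-IL-6 at 10 ng/ml, washed 4 times in PBS and held without serum for 3 h. Untransfected (parental) cells and the lines transfected with CIR-1, CIR-2 or CIR-3 were each left unstimulated or given GFP-PFC emulsion at 50 µl/ml for 1 h, and parental cells were also given Hyper-IL-6 at 100 ng/ml for 1 h. GFP-PFC is a perfluorocarbon emulsion that carries green fluorescent protein. The stated purpose was to see what the receptor constructs do to the cells as a whole. Each construct was present in 1 line, and the labels do not say whether a line is 1 clone, so construct and line cannot be told apart. The labels do not name separate cultures for the 3 arrays of a group, so p-values measure the spread between these arrays, which may be technical.

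Receptors of this family have no kinase of their own and signal through Janus kinases bound to their cytoplasmic tails, which phosphorylate STAT5, STAT6 or STAT3. IL-3, GM-CSF and IL-5 each have a private alpha chain and share the common beta chain Csf2rb, and the mouse has a further beta chain, Csf2rb2, that serves IL-3 alone. Epo and G-CSF act through receptors that pair with themselves, while IL-2 and IL-4 share the common gamma chain Il2rg. Ba/F3 cells are known for growing on IL-3, and they are widely used to test whether a transfected receptor can replace that signal.

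Values are log2 signals as deposited, and a difference of 1 on this scale is a 2-fold change in signal. A level is set against other arrays for the same probe set only. Array medians ran from 7.52 to 7.65. The lower quartile of all values was 6.63, and the 1027 olfactory receptor genes, which serve as a measure of background, had a median of 5.37 (5% of them lay above 7.22). Unstimulated and GFP-PFC arrays of the same line with consecutive numbers (1 and 2, 3 and 4, 5 and 6, of which the odd one is unstimulated) deviated from their group means together, and so did arrays of the same number in different lines. Those numbered 1 and 2 are left out in turn where that ends a call. Of 15 measured pro-B cell markers, 8 had mean levels above the lower quartile in every group, while Ebf1, Blnk, Rag1, Rag2, Dntt, Il7r and Cd24a lay below it. Among those 8, Bst1 (mean 6.96), Vpreb1 (7.10) and Vpreb3 (7.18) still lay within the range of the olfactory receptor genes, under 7.22, and Pax5 (7.24) barely above it. As a check of the stimulation, Socs3, a feedback inhibitor of gp130 signalling, was 8.33-fold higher after Hyper-IL-6 than without stimulation (difference 3.06, SE 0.28, adjusted p = 2.14e-07).

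Lines were compared over their unstimulated and GFP-PFC arrays, 6 a line, with limma fitted to all 27 arrays and p-values adjusted over all genes. The comparisons of CIR-1, CIR-2 and CIR-3 with parental cells share the same parental arrays. Since the 2 arrays of a pair were so alike, each receptor that passed in a line was also computed from the means of consecutive arrays, 3 values a line, with and without a block for the number pair. For the same reason, counts over the 6 same-numbered pairs of 2 lines rest on 3 number pairs. No share of all genes was computed for those counts. In CIR-1, 1 of 8 gene-level receptors passed an adjusted p of 0.05 (Epor), against 4.91% of all genes. In CIR-2, 2 of 8 passed (Epor and Csf2rb2), against 3.8%, and in CIR-3, 2 of 8 passed (Epor and Csf2ra), against 4.2%. The 8 receptors had a median difference of -0.036 for CIR-1, 0.040 for CIR-2 and 0.17 for CIR-3, beside medians of 0.0007, -0.0032 and -0.023 over all genes.

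**Figure D1:**
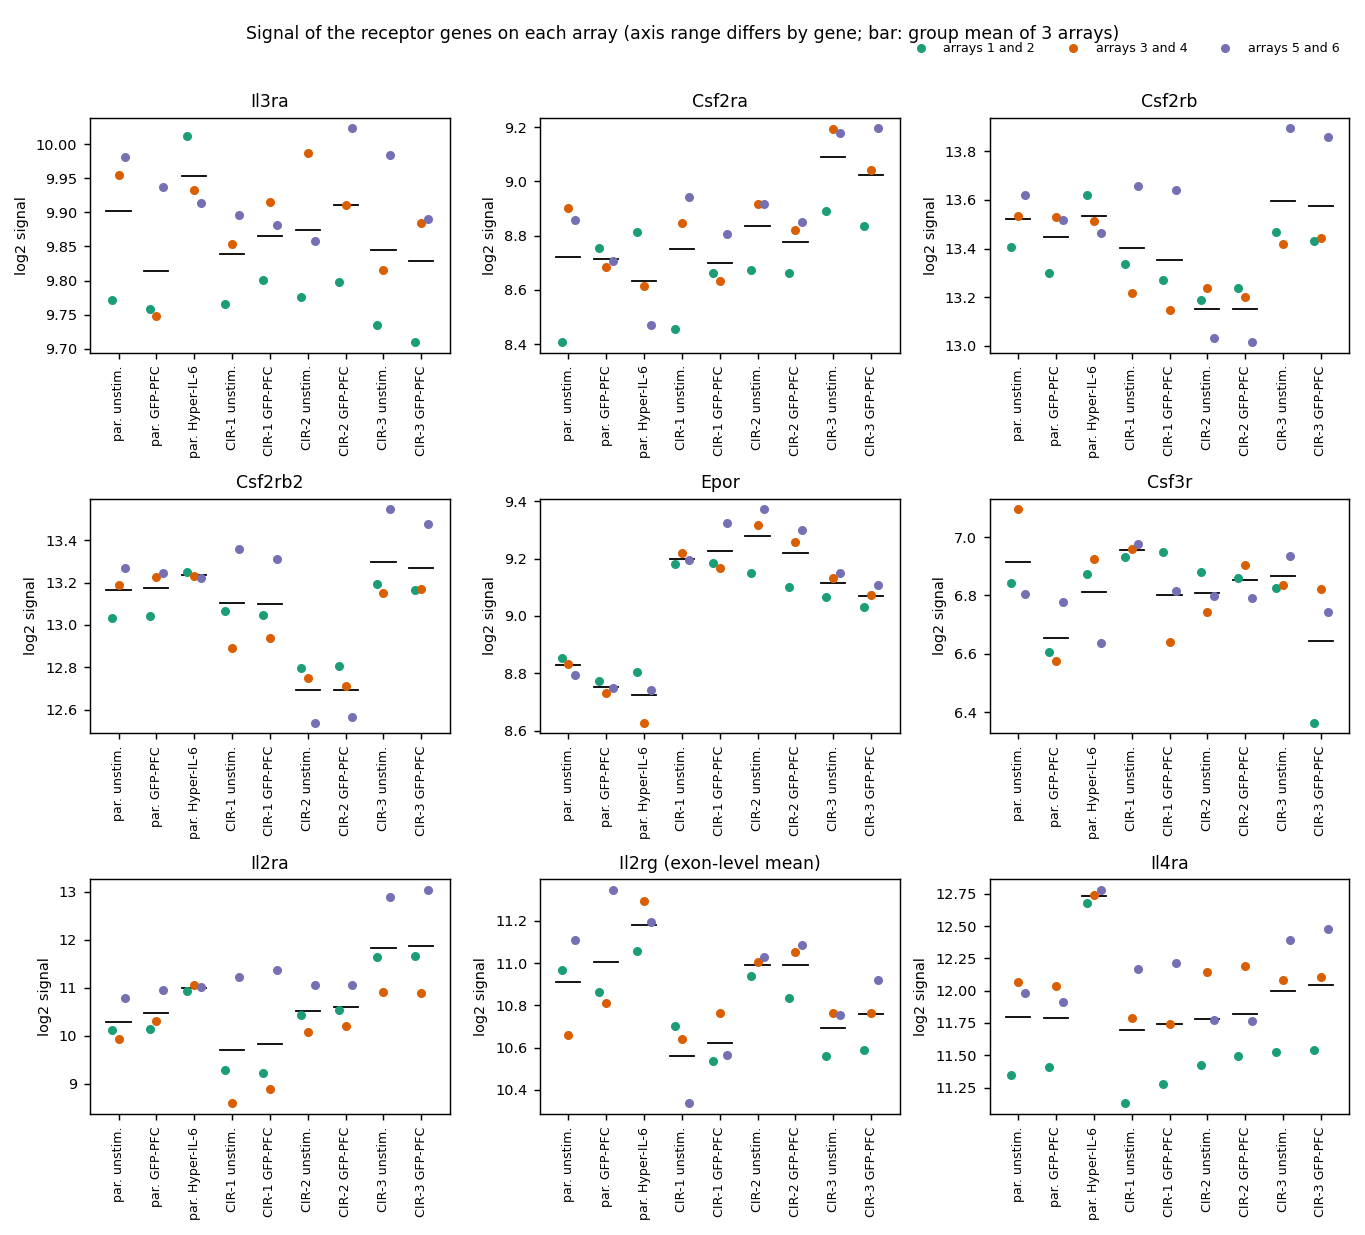
Log2 signal (y axis, range differs by gene) of the 9 receptor genes on each array, in the 9 groups of line and stimulation on the x axis; colours mark arrays numbered 1 and 2, 3 and 4, or 5 and 6, and bars are means of 3 arrays. Epor of the 9 parental arrays lies between 8.63 and 8.85, below all CIR arrays, which start at 9.03, while Il2ra and Il4ra separate by array number within a line.

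Promoter sequences are shown for the 4 genes that passed in a line comparison at gene level and have an entry among RefSeq's promoters for GRCm38.p6, since their transcript levels carry the results below: Epor (chr9:21963527-21963826, minus strand), Csf2rb2 (chr15:78305672-78305971, minus strand), Csf2ra (chr19:61228369-61228668, minus strand) and Il2ra (chr2:11642542-11642841, plus strand). Each runs 5′ to 3′ over 300 bases, from 250 bases before the annotated start to 50 after it. Capitals mark matches to a GATA factor motif (GATA with A or T before it and A or G after it) and to a STAT motif (TTCNNNGAA), both read on either strand.
Epor: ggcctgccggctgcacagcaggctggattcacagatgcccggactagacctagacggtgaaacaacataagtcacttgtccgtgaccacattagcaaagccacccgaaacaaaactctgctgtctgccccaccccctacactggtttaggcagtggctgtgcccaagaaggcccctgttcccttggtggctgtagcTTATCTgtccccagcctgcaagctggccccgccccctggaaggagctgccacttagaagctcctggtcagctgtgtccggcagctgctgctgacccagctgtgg
Csf2rb2: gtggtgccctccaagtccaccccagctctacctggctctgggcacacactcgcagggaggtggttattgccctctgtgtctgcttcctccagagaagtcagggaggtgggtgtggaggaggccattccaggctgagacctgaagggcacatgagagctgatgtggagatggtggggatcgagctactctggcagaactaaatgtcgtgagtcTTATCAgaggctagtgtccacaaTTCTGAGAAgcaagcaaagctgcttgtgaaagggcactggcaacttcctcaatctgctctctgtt
Csf2ra: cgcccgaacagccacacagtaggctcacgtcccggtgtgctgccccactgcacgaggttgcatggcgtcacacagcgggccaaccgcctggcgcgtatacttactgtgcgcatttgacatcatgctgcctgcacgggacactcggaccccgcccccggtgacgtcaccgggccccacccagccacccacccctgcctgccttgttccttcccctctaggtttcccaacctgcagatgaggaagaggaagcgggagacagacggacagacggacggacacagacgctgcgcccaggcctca
Il2ra: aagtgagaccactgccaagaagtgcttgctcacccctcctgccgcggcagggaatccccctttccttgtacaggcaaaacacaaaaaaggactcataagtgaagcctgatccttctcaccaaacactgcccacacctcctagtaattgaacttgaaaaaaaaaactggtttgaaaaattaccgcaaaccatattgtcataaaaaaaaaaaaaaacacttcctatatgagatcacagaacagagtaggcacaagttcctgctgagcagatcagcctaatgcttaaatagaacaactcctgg
The GATA motif stood at position -54 from the annotated start of Epor and at -38 of Csf2rb2, and 29.8% of 32851 promoters of the same length hold it. The STAT motif stood at -15 of Csf2rb2 only among these 4, and 8.3% of all promoters hold it. The 2 matches of Csf2rb2 did not overlap. Promoter entries were found for 8 of the 9 genes, and Il3ra held a GATA match at -147. A match is a string of letters, not a site shown to be bound.

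The receptor of Epo, the hormone that drives red cell formation, was higher in all 3 CIR lines than in parental cells. Epor read 8.85, 8.83 and 8.79 on the unstimulated parental arrays, 8.77, 8.73 and 8.75 after GFP-PFC, and 8.81, 8.63 and 8.74 after Hyper-IL-6. CIR-1 read 9.18, 9.22 and 9.19 unstimulated and 9.18, 9.17 and 9.33 with GFP-PFC. CIR-2 read 9.15, 9.32 and 9.37, then 9.10, 9.26 and 9.30. CIR-3 was the lowest of the transfected lines, at 9.07, 9.13 and 9.15, then 9.03, 9.07 and 9.11, and still every array of it lay above every parental one. In order of level, parental cells came first, then CIR-3, then CIR-1 and CIR-2, whose arrays overlapped. CIR-3 differed from CIR-1 by -0.12 (95% interval -0.21 to -0.02, adjusted p = 0.237), with no overlap between their arrays, as for 2.66% of all genes. It differed from CIR-2 by -0.16 (-0.25 to -0.06, adjusted p = 0.0828, and 0.0336 with the block). Neither difference passed in the fit to all arrays. With quantile normalization both passed (0.0458 and 0.00725). The difference from CIR-2 also passed without the arrays numbered 1 and 2 (0.0153), with array weights (0.00396) and without CIR-2 array 1 or 2 (0.0272 and 0.034), but not with averaged arrays (0.467, and 0.116 with those means and the block). Many more genes in all passed without the arrays numbered 1 and 2 and with array weights than in the fit to all arrays.

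The difference from parental cells was 0.42 in CIR-1 (SE 0.046, 1.34-fold, adjusted p = 9.91e-07), 0.46 in CIR-2 (SE 0.046, 1.38-fold, adjusted p = 3.00e-07) and 0.30 in CIR-3 (SE 0.046, 1.23-fold, adjusted p = 0.000119). Every array of each CIR line lay above every parental array. Groups without overlap were seen for 3.78%, 3.79% and 3.36% of all genes in these comparisons. With consecutive arrays averaged, the adjusted p of Epor was 0.00212, 0.00126 and 0.0228. Unstimulated cells alone gave differences of 0.37, 0.45 and 0.29, and GFP-PFC cells alone gave 0.47, 0.47 and 0.32, and each of the 6 passed. All genes passed at rates of 1.73%, 1.2% and 1.49% in the former and 1.64%, 1.17% and 1.24% in the latter. With both conditions and every alternative tried, Epor passed in each of the 3 lines. The genes most like Epor over the 9 group means were Inka1 (Pearson r = 0.982), Gm5779 (0.979) and n-R5s136 (0.978). All 7 exon-level probe sets of Epor were higher in each CIR line by sign, with differences from 0.17 to 0.68 in CIR-1, 0.21 to 0.73 in CIR-2 and 0.11 to 0.58 in CIR-3. Of those, 4, 5 and 3 passed, where single probe sets passed in 1.6%, 1.15% and 1.24% of all cases.

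Genes of red cells and platelets were read beside Epor. Bulk RNA cannot tell fewer cells of a type from less RNA per cell. Of 9 measured erythroid and megakaryocyte markers out of 13 listed, 5 were higher in CIR-1 and 5 in CIR-2, with 0 lower in either. Unstimulated and GFP-PFC cells taken alone gave 4 and 5 in CIR-1, and in CIR-2 0 and 0 in limma, with 4 and 6 at an unadjusted p under 0.05. In CIR-3, 0 of the 9 passed in limma, and 4 had an unadjusted p under 0.05. In CIR-1 the erythroid transcription factor Gata1 was higher by 0.44 (SE 0.047, adjusted p = 6.81e-07), its fellow factor Klf1 by 0.63 (SE 0.093, adjusted p = 7.62e-05) and the platelet integrin chain Itga2b by 0.37 (SE 0.053, adjusted p = 4.51e-05). In CIR-2, Gata1 was higher by 0.25 (SE 0.047, adjusted p = 0.00183) and Klf1 by 0.43 (SE 0.093, adjusted p = 0.00693). With averaged arrays 4 of the 5 passed in CIR-1, all but the transcription factor gene Nfe2 (0.0649). In CIR-2, Epb42 passed (0.0311), and Gata1 (0.081), Klf1 (0.143), Itga2b (0.275) and Nfe2 (0.383) did not, though each of these 4 did when the block was added to those means. Nfe2 in CIR-2 also failed in 10 of the 12 fits that left out 1 array, and Itga2b there without array 5 (0.0576). The mean level of the list ran from 9.26 to 9.36 over the parental arrays, from 9.56 to 9.62 in CIR-1, from 9.49 to 9.52 in CIR-2 and from 9.33 to 9.46 in CIR-3. The red cell membrane gene Epb42 and the platelet chemokine gene Pf4 lay below the lower quartile of all values on average. The part of these markers in the Epor result was not tested.

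Csf2rb2, the beta chain that serves IL-3, was lower in CIR-2 than in the other lines. Its signal was near the top of the array range, where 99% of all values lay below 13.32. Parental arrays read 13.03, 13.19 and 13.27 unstimulated and 13.04, 13.23 and 13.25 with GFP-PFC. CIR-2 read 12.80, 12.75 and 12.54, then 12.81, 12.71 and 12.56, so that no CIR-2 array reached a parental one. In that comparison 3.79% of all genes had groups without overlap. CIR-1 read 13.06, 12.89 and 13.36, then 13.05, 12.94 and 13.31, and CIR-3 read 13.19, 13.15 and 13.55, then 13.16, 13.17 and 13.48. The ranges of parental, CIR-1 and CIR-3 arrays overlapped one another, and CIR-2 lay below all of them.

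CIR-2 differed from parental cells by -0.47 (SE 0.087, 1.39-fold lower, adjusted p = 0.00124). With consecutive arrays averaged the adjusted p was 0.101, and 0.0209 with those means and the block. Against CIR-1 the difference was -0.41 (SE 0.087, adjusted p = 0.0115). The arrays of these lines did not overlap, as for 2.1% of genes. The call ended with averaged arrays (0.402, and 0.0898 with the block), when only the compared arrays were fitted (0.0501) and without CIR-2 array 5 (0.0517). CIR-3 exceeded CIR-2 by 0.59 (SE 0.087, 1.5-fold, adjusted p = 0.000131, and 0.045 with averaged arrays). All 8 exon-level probe sets of Csf2rb2 were lower in CIR-2 than in parental cells by sign, from -0.68 to -0.27, and 6 passed, against 1.15% of all single probe sets. All 8 were also higher in CIR-3 than in CIR-2, from 0.32 to 0.83, and 6 passed, against 0.661% of all single probe sets. Between transfected lines, 1 of the 8 receptors passed for CIR-2 against CIR-1 (Csf2rb2), 1 for CIR-3 against CIR-1 (Il2ra) and 2 for CIR-3 against CIR-2 (Csf2rb and Csf2rb2), against 1.45%, 2.8% and 2.33% of all genes. The beta chains were also the ones without overlap between CIR-3 and CIR-2 among the 8, where 3.59% of genes had none. Mast cells and basophils are known users of IL-3. Of 12 measured markers of those cells, 2 were higher and 2 lower in CIR-1, 1 higher and 2 lower in CIR-2, and 2 higher and 2 lower in CIR-3, with median differences of 0.0023, -0.11 and -0.15. Fcer1a, a chain of the IgE receptor, was lower in all 3 lines, with differences of -4.16, -4.16 and -4.29 (SE 0.20, adjusted p = 5.49e-13, 4.81e-13 and 1.77e-13). The mean level of that list, which holds Fcer1a, ran from 7.35 to 7.63 on parental arrays and from 6.99 to 7.22 on arrays of the CIR lines, and Cpa3, Mcpt8, Cma1 and Mcpt4 lay below the lower quartile throughout. The part of these markers in the beta chain results was not tested.

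Csf2rb, the common beta chain of IL-3, GM-CSF and IL-5, showed the same order of lines. It read from 13.30 to 13.62 on parental arrays (median 13.52), 13.15 to 13.66 in CIR-1 (median 13.30), 13.02 to 13.24 in CIR-2 (median 13.20) and 13.42 to 13.89 in CIR-3 (median 13.46). All CIR-2 arrays lay below all parental arrays, in a comparison where 3.79% of all genes had groups without overlap. The difference was -0.33 (SE 0.098, 95% interval -0.53 to -0.13), with an adjusted p of 0.0625 that missed the threshold, and of 0.0224 with the block. With averaged arrays it was 0.489, and 0.133 with those means and the block. CIR-3 exceeded CIR-2 by 0.43 (SE 0.098, 1.35-fold, adjusted p = 0.0149). That call ended with averaged arrays (0.316, and 0.0557 with the block) and without array 5 or 6 of either line (0.0511 to 0.0627).

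The exon-level probe sets of Csf2rb were not alike. Of 9, the probe set 10425067 differed between CIR-2 and parental cells by -0.86 (SE 0.17, 1.81-fold lower, adjusted p = 0.0107), while the other 8 differed by -0.41 to -0.17 and did not pass. In CIR-3 against CIR-2 the same probe set differed by 1.14 (SE 0.17, adjusted p = 0.000763), and the lowest of the 9 by 0.22. Csf2rb and Csf2rb2 are near-identical neighbouring genes, and whether their probes separate the 2 transcripts is uncertain. Over the 9 group means, Csf2rb2 was the gene most like Csf2rb (r = 0.975, among genes whose group means span at least 0.5), followed by the casein kinase gene Csnk1e (0.958) and the nucleotide transporter gene Slc17a9 (0.956). Those most like Csf2rb2 were Csnk1e (0.983), Slc17a9 (0.946) and Slc49a4 (0.916). The groups share lines and array numbers, so these values describe the pattern only.

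Csf2ra, the private alpha chain of the GM-CSF receptor, was higher in CIR-3 than in parental cells. Parental arrays read 8.41, 8.90 and 8.86 unstimulated and 8.75, 8.68 and 8.71 with GFP-PFC. CIR-3 read 8.89, 9.19 and 9.18, then 8.83, 9.04 and 9.19. The lowest CIR-3 arrays lay within the parental range, and CIR-3 was higher in 6 of 6 pairs of arrays with the same number, by 0.081 to 0.49. CIR-1 (8.46 to 8.94, median 8.73) and CIR-2 (8.66 to 8.92, median 8.84) overlapped parental cells.

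The difference of CIR-3 from parental cells was 0.34 (SE 0.093, 1.26-fold, adjusted p = 0.0394). The call was lost with averaged arrays (0.207, and 0.000626 with the block), when only the compared arrays were fitted (0.0944), with quantile normalization (0.0687) and when any of 8 arrays was left out (0.0583 to 0.11). Against CIR-1 the difference was 0.33 (SE 0.093, adjusted p = 0.0585, and 0.0117 with the block), and against CIR-2 0.25 (SE 0.093, adjusted p = 0.207). Those most like Csf2ra over the 9 group means were the annexin gene Anxa3 (r = 0.967), the acid phosphatase gene Acp5 (0.966) and Ccdc38 (0.965).

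At exon level 1 of the 4 Csf2ra probe sets passed in CIR-3 against parental cells, where 1.24% of all single probe sets did. The probe set 10468894 read 8.88, 8.08 and 7.85 on unstimulated and 8.80, 8.53 and 8.11 on GFP-PFC parental arrays. In CIR-3 it read 10.23, 10.14 and 9.95, then 10.03, 10.08 and 10.24, above every array of the other lines. The difference was 1.74 (SE 0.16, 3.33-fold, adjusted p = 3.76e-07, and 0.000953 with averaged arrays). It also exceeded CIR-1 by 1.39 (adjusted p = 1.06e-05) and CIR-2 by 1.21 (adjusted p = 9.21e-05). The other 3 probe sets differed from parental cells by 0.46 (SE 0.18, adjusted p = 0.321), 0.20 (SE 0.19, adjusted p = 0.8) and -0.15 (SE 0.14, adjusted p = 0.809). The place of this probe set within the gene is not given in the sources used here.

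**Figure D2:**
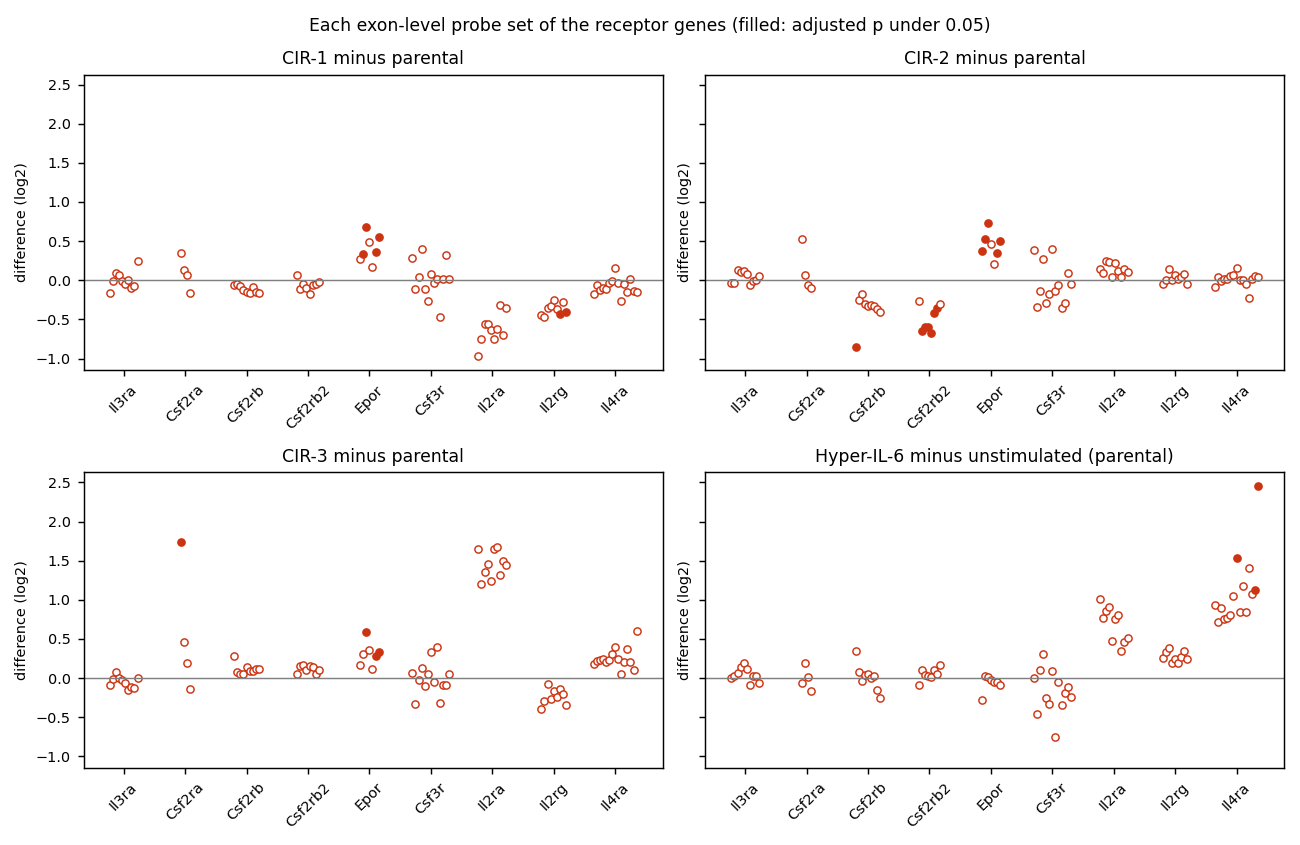
Difference in log2 signal (y axis) of each of the 85 exon-level probe sets of the 9 genes (x axis) between each CIR line and parental cells and between Hyper-IL-6 and unstimulated parental cells; filled points passed an adjusted p of 0.05. In CIR-3, 1 Csf2ra probe set stands at 1.74 while the other 3 lie between -0.15 and 0.46, and after Hyper-IL-6 all 15 Il4ra probe sets lie above 0, the highest at 2.46.

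Il3ra, the private alpha chain of the IL-3 receptor, differed little between arrays of any group. It ranged from 9.71 to 10.02 over all 27 arrays. Group means ran from 9.81 (SD 0.11) in GFP-PFC parental cells to 9.95 (SD 0.05) in parental cells with Hyper-IL-6, a gap of 0.14 (SE 0.081, 95% interval -0.03 to 0.31). The 3 CIR lines differed from parental cells by -0.01 (95% interval -0.12 to 0.11), 0.03 (-0.08 to 0.15) and -0.02 (-0.14 to 0.10). None of its 10 exon-level probe sets passed in any of the 9 comparisons in limma, with or without the block. Csf2rb2, the beta chain that serves IL-3, passed in CIR-2, where Il3ra did not; whether these 2 genes differ in their response to the line was not tested.

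Csf3r, the receptor of the neutrophil growth factor G-CSF, was close to background. Its mean of 6.81 lay above 89.7% of the olfactory receptor genes, whereas the other 7 gene-level receptors lay above at least 99.8% of them. Values ran from 6.36 to 7.10. The CIR lines differed from parental cells by 0.10 (95% interval -0.06 to 0.25), 0.05 (-0.10 to 0.20) and -0.03 (-0.18 to 0.12). Its 13 exon-level probe sets scattered on both sides of 0 in each of the 9 comparisons, and 0 passed in limma, with or without the block.

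Il2ra, the alpha chain that raises the affinity of the IL-2 receptor, had the widest range of the 9 genes, from 8.59 to 13.03. Parental cells read 10.13, 9.93 and 10.79 unstimulated and 10.15, 10.32 and 10.94 with GFP-PFC. CIR-3 read 11.65, 10.92 and 12.89, then 11.66, 10.89 and 13.03. CIR-1 read 9.30, 8.59 and 11.23, then 9.24, 8.90 and 11.38, and CIR-2 read 10.43, 10.08 and 11.05, then 10.53, 10.19 and 11.06. In every line the arrays numbered 5 and 6 were the highest and those numbered 3 and 4 the lowest, except that GFP-PFC parental array 4 lay above array 2. Arrays of the same number were therefore the closest comparison, and CIR-3 was higher than parental cells in 6 of 6 such pairs, by 0.58 to 2.10. These are 3 number pairs read unstimulated and with GFP-PFC, at 1.52 and 1.51, 0.99 and 0.58, and 2.10 and 2.09, and not 6 separate results.

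Across all arrays, CIR-3 exceeded CIR-1 by 2.07 (SE 0.44, 4.19-fold, adjusted p = 0.00618). The call ended with averaged arrays (0.215, and 0.000792 with the block), with only the compared arrays (0.0863) and without the arrays numbered 1 and 2 (0.101). CIR-3 exceeded parental cells by 1.46 (SE 0.44, 2.76-fold, 95% interval 0.55 to 2.37), with an adjusted p of 0.0612 that missed the threshold. With the block it was 0.000369, and 0.007 with averaged arrays and the block. CIR-3 exceeded CIR-2 by 1.28 (SE 0.44, adjusted p = 0.155, and 0.00258 with the block). CIR-1 and CIR-2 differed from parental cells by -0.60 (95% interval -1.51 to 0.31) and 0.18 (-0.73 to 1.09), with higher arrays in 2 of 6 and 5 of 6 pairs. The order of lines was CIR-1, parental, CIR-2 and CIR-3, and the first 3 did not differ beyond their spread.

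All 10 exon-level probe sets of Il2ra were higher in CIR-3 than in parental cells by sign, from 1.20 to 1.67, with 0 passing in limma and 10 passing with the block. Against CIR-1 they differed by 1.63 to 2.63 and 9 passed, where 1.03% of single probe sets did. Markers of T and NK cells were read beside Il2ra. Of 10 measured, 0 passed in limma in CIR-3 against parental cells or against CIR-1, with 0 and 2 at an unadjusted p under 0.05. Their mean level ran from 6.72 to 7.05 in parental cells and from 6.76 to 6.88 in CIR-3, and the T cell receptor chains Cd3d and Cd3g and the NK receptor Ncr1 lay below the lower quartile. Genes most like Il2ra over the 9 group means were the metalloprotease gene Adam8 (r = 0.973), the adaptor gene Tyrobp (0.960) and Prss57 (0.954).

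**Figure D3:**
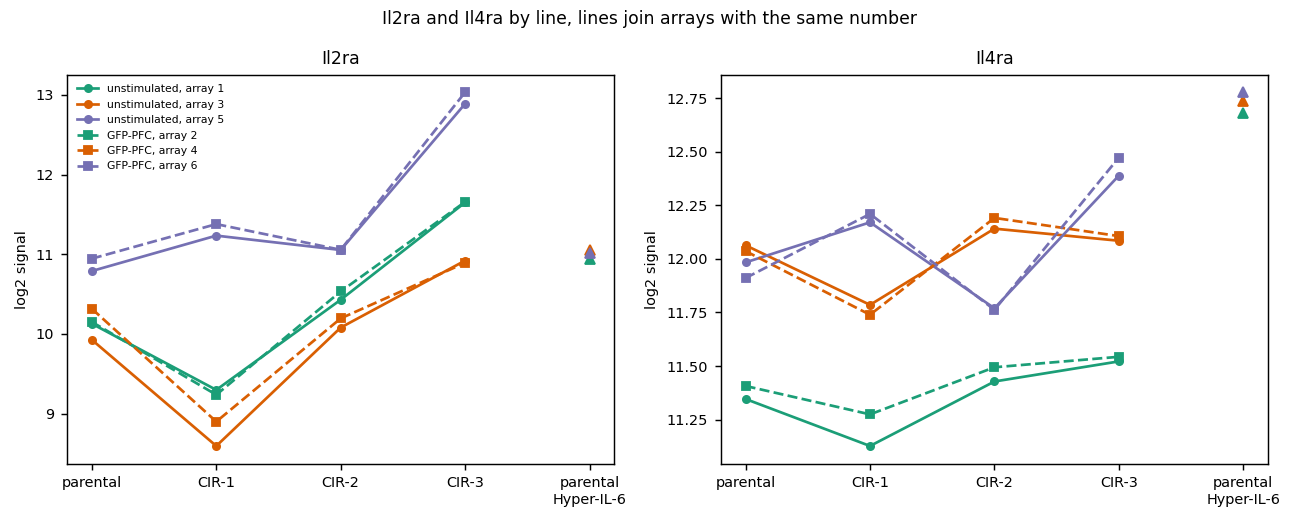
Log2 signal (y axis) of Il2ra and Il4ra by line (x axis), with arrays of the same number joined, solid for unstimulated and dashed for GFP-PFC, and Hyper-IL-6 arrays as triangles. Il2ra of CIR-3 lies above parental cells along all 6 joined lines, and Il4ra after Hyper-IL-6 lies between 12.68 and 12.78, above all 24 other arrays, the highest of which is 12.47.

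Il2rg, the gamma chain shared by the receptors of IL-2, IL-4 and several other interleukins, was lower in CIR-1 than in parental cells at exon level. Parental arrays read 10.97, 10.66 and 11.11 unstimulated and 10.86, 10.81 and 11.35 with GFP-PFC. CIR-1 read 10.70, 10.64 and 10.34, then 10.53, 10.77 and 10.56, and CIR-2 read 10.94, 11.00 and 11.03, then 10.83, 11.05 and 11.08. The CIR-1 arrays overlapped the lowest parental array and no CIR-2 array. CIR-3 ran from 10.56 to 10.92 (median 10.76).

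CIR-1 differed from parental cells by -0.37 (SE 0.094, 1.29-fold lower, adjusted p = 0.0211), where 4.33% of exon-level genes passed, and it was lower in 6 of 6 pairs. CIR-2 exceeded CIR-1 by 0.40 (SE 0.094, 1.32-fold, adjusted p = 0.0282), where 1.29% passed. Both calls ended with averaged arrays (0.217 and 0.385, and 0.0818 and 0.137 with the block) and without the arrays numbered 1 and 2 (0.0583 and 0.073). The first also ended without parental array 5 or 6 (0.0736 and 0.0778), without CIR-1 array 2, 5 or 6 (0.053 to 0.0757) and when only the compared arrays were fitted (0.132). The second ended without CIR-1 array 2, 5 or 6 or CIR-2 array 3, 4, 5 or 6 (0.0693 to 0.0995). CIR-3 lay between, at -0.23 from parental cells (95% interval -0.43 to -0.04, adjusted p = 0.207). All 9 exon-level probe sets were lower in CIR-1 than in parental cells by sign, from -0.46 to -0.25, and 2 passed, against 1.6% of all single probe sets. The tested value is the mean of these same 9 probe sets, so their shared sign is no separate check.

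Il4ra, the chain that binds IL-4 and pairs with Il2rg, did not pass in any line comparison. Its values depended on array number in the transfected and parental lines alike, from 11.13 to 11.54 on arrays 1 and 2 and from 11.74 to 12.47 on the others. CIR-3 was higher than parental cells in 6 of 6 pairs, by 0.021 to 0.56, with a difference of 0.23 (SE 0.21, 95% interval -0.20 to 0.65, adjusted p = 0.611). CIR-1 and CIR-2 differed by -0.07 (-0.50 to 0.35) and 0.01 (-0.42 to 0.43).

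**Figure D4:**
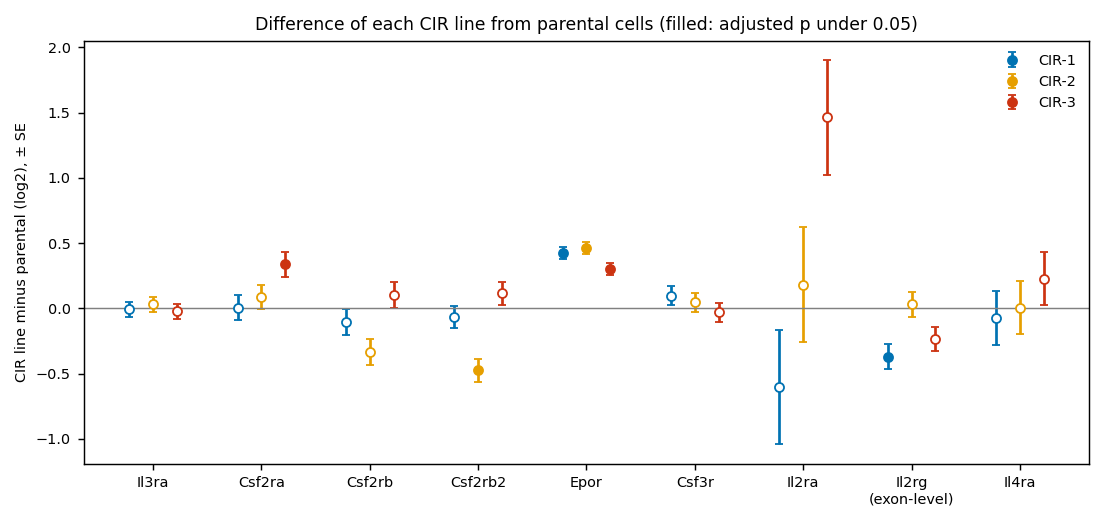
Difference in log2 signal (y axis, points with SE bars) of each CIR line from parental cells for the 9 receptor genes (x axis), over 6 arrays a line; filled points passed an adjusted p of 0.05. Epor passed in all 3 lines at 0.42, 0.46 and 0.30, Csf2rb2 in CIR-2 at -0.47, Csf2ra in CIR-3 at 0.34 and Il2rg in CIR-1 at -0.37, and the widest error bars are those of Il2ra.

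After 1 h with Hyper-IL-6, 0 of the 8 gene-level receptors passed in parental cells in limma, against 0.773% of all genes. At an unadjusted p under 0.05, 1 of the 8 passed (Il4ra), as did 1326 genes in all. Il4ra read 11.35, 12.06 and 11.98 without stimulation, 11.41, 12.04 and 11.91 with GFP-PFC, and 12.68, 12.74 and 12.78 with Hyper-IL-6. The Hyper-IL-6 arrays lay above every other array of the study. The difference was 0.93 from unstimulated cells (SE 0.29, 1.91-fold, 95% interval 0.33 to 1.54, adjusted p = 0.26) and 0.95 from GFP-PFC cells (SE 0.29, 95% interval 0.35 to 1.55, adjusted p = 0.314). The Hyper-IL-6 arrays are shared by these 2 comparisons. Without the arrays numbered 1 and 2, the first difference was 0.73 and passed (adjusted p = 0.019). A far larger share of all genes than 0.773% passed in that fit (counts in the closing section), so this pass says little about Il4ra alone.

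The exon-level probe sets of Il4ra were all higher after Hyper-IL-6 by sign, 15 of 15, from 0.71 to 2.46, with a median of 0.93. Of these, 3 passed, against 0.145% of all single probe sets: 10557341 by 2.46 (SE 0.36, 5.49-fold, adjusted p = 0.0017), 10557334 by 1.53 (SE 0.23, 2.88-fold, adjusted p = 0.00274) and 10557340 by 1.12 (SE 0.22, 2.18-fold, adjusted p = 0.0334). Probe sets of 1 gene read the same RNA and are not replicates of the stimulation. Against GFP-PFC cells, 2 of the 15 passed (0.091% of all single probe sets did), and all 15 had the same sign.

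Il2ra read 10.94, 11.05 and 11.01 after Hyper-IL-6, just above the highest unstimulated parental array of 10.79 while the GFP-PFC arrays reached as high as the lowest of the 3. Its difference from unstimulated cells was 0.72 (SE 0.62, 95% interval -0.57 to 2.00, adjusted p = 0.973). Groups of 3 without overlap were seen for 8.81% of all genes in this comparison, and for Il2ra and Il4ra among the 8 receptors. Il2rg differed by 0.27 (SE 0.13, 95% interval -0.0038 to 0.55, adjusted p = 0.791), Epor by -0.10 (-0.24 to 0.03), Csf2ra by -0.09 (-0.36 to 0.18), Csf2rb by 0.01 (-0.27 to 0.30) and Csf2rb2 by 0.07 (-0.18 to 0.32). Without the arrays numbered 1 and 2 the Csf2ra difference was -0.34 and passed (adjusted p = 0.00899), in the same fit where far more genes passed. Without 1 array at a time the Csf2ra difference ran from -0.25 to 0.00012 and did not pass. Against GFP-PFC cells, 0 of 8 passed, where 0.507% of all genes did, and Il4ra alone of the 8 had no overlap, where 11.3% of genes had none.

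Genes listed as targets of STAT5 and STAT6 were read after Hyper-IL-6 in the same cells. Of 14 such genes, all measured, 10 were higher and 0 lower, where 0.773% of all genes passed. The 14 had a median difference of 0.90 beside -0.013 over all genes. Socs3, the check of the stimulation above, is on this list, and which STAT acted on these genes was not tested. The list was chosen with earlier results of these data known, so its count is not independent of them. When 1 of the 6 arrays was left out in turn, Osm, Socs3, Cish, Id1 and Mcl1 passed each time, Pim1 in 0 of 6 fits, Myc and Socs2 in 2, Bcl6 in 3 and Socs1 in 5. Cish, a STAT5-induced inhibitor of receptor signalling, was higher by 2.07 (SE 0.19, adjusted p = 2.68e-07), the cytokine Osm by 3.77 (SE 0.22, adjusted p = 1.65e-10) and Id1, an inhibitor of differentiation factors, by 1.47 (SE 0.24, adjusted p = 0.00106). Of 12 measured ligands of these receptors, 2 were higher: Il13, a cytokine whose receptor uses Il4ra, by 0.72 (SE 0.15, adjusted p = 0.0163), and Csf2, which encodes GM-CSF, by 0.50 (SE 0.12, adjusted p = 0.0432). Csf2 lay below the lower quartile both without stimulation and after Hyper-IL-6. Il13 lost its call in 4 of the 6 fits without 1 array (adjusted p up to 0.189), all but those without unstimulated array 5 or Hyper-IL-6 array 2, and Csf2 in 5 (up to 0.503), all but that without Hyper-IL-6 array 2. Of 11 adaptors and dampers of receptor signalling, 1 passed, the docking protein Dok1, higher by 0.42 (SE 0.092, adjusted p = 0.0244), a call lost in the same 4 fits as that of Il13 (up to 0.183). Of 7 measured kinases and STAT factors and of 12 other receptor chains, 0 passed in limma, with 2 and 1 at an unadjusted p under 0.05.

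After GFP-PFC no receptor passed. Over the 4 lines, 0 of the 8 passed, where 0.221% of all genes did, and at an unadjusted p under 0.05 only Csf3r among the 8 did. Csf3r was lower with GFP-PFC in 10 of 12 pairs, with a mean difference of -0.15 (SE 0.052, 95% interval -0.26 to -0.04, adjusted p = 0.469), at levels close to background. Il2ra was higher in 10 of 12 pairs, by 0.11 on average (SE 0.31, 95% interval -0.53 to 0.75). The 95% intervals of the other 6 lay between -0.27 and 0.33. In no single line did any of the 8 pass in limma, nor did any of the 19920 genes, of which 781 (parental), 489 (CIR-1), 264 (CIR-2) and 427 (CIR-3) had an unadjusted p under 0.05. With a block for the 12 pairs of line and number, 7 (parental), 17 (CIR-1), 2 (CIR-2) and 47 (CIR-3) genes passed, none of them a receptor. Of all single exon-level probe sets 0.0264% passed over the 4 lines, and none of the 85 did. A test of whether the GFP-PFC difference varied among the 4 lines gave adjusted p-values of 1.00 for each of the 8, with 0 genes passing and 187 at an unadjusted p under 0.05.

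Other genes of the pathway differed between lines in small numbers. Among 12 other receptor chains, Il2rb, the signalling beta chain of the IL-2 receptor, was higher in CIR-1 than in parental cells by 0.30 (SE 0.069, adjusted p = 0.00758), and 0 passed in CIR-2 or CIR-3 in limma, with 0 and 1 at an unadjusted p under 0.05. Il2rb was close to background, with a mean of 6.77 over all arrays and 6.64 over parental arrays, beside a lower quartile of 6.63. Among 12 ligands, Il15, whose receptor uses Il2rb and Il2rg, differed by -1.04 in CIR-1 (SE 0.23, 2.06-fold lower, adjusted p = 0.00506), and higher in CIR-2 than in CIR-1 by 1.34 (SE 0.23, 2.53-fold, adjusted p = 0.00106). Il3 itself and Epo lay below the lower quartile of all values. Both adaptors of the Dok family passed: Dok2 was higher in CIR-2 by 0.50 (SE 0.071, adjusted p = 4.79e-05) and in CIR-3 by 0.39 (SE 0.071, adjusted p = 0.00113), and Dok1 in CIR-1 by 0.30 (SE 0.065, adjusted p = 0.00508) and in CIR-2 by 0.29 (SE 0.065, adjusted p = 0.00788). Stat3 was the only kinase or STAT factor of 7 to pass in a CIR line, higher in CIR-1 by 0.22 (SE 0.058, adjusted p = 0.0219). Its call was lost in 5 of the 12 fits without 1 array (up to 0.0818): parental array 1 or 2, or CIR-1 array 4, 5 or 6. With averaged arrays Dok2 passed in CIR-2 (0.0154) but not in CIR-3 (0.0657). Nor did Il2rb (0.0659), Il15 in CIR-1 (0.121) or between CIR-2 and CIR-1 (0.0932), Dok1 in CIR-1 and CIR-2 (0.12 and 0.166) or Stat3 (0.308). Each passed when the block was added to those means.

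Of the 14 genes listed as STAT5 and STAT6 targets, 3 were higher and 1 lower (Bcl6) in CIR-1, 4 were higher in CIR-2 and 4 in CIR-3. Bcl2l1, which encodes a survival protein, was higher in each line, by 0.57, 0.48 and 0.41 (SE 0.084, adjusted p = 6.57e-05, 0.000743 and 0.00358). The cyclin gene Ccnd3 was higher by 0.41, 0.46 and 0.40 (SE 0.11, adjusted p = 0.0349, 0.0216 and 0.0465). Its calls were lost in 8, 5 and 9 of the 12 limma fits without 1 array (adjusted p up to 0.113, 0.0812 and 0.12). With averaged arrays, Bcl2l1 passed in CIR-1 only (0.0227, 0.0759 and 0.145) and Ccnd3 in none of the 3 (0.312 to 0.358), and both passed in all 3 lines when the block was added to those means. Gata2, a transcription factor of blood stem cells and mast cells, was higher in CIR-3 by 0.30 (SE 0.057, adjusted p = 0.00148, and 0.105 with averaged arrays), in a mast cell and basophil list of which 2 were higher and 2 lower in that line. The rise of Gata2 was not particular to CIR-3, since it also passed in CIR-1 and CIR-2. In fits without 1 array its difference ran from 0.21 to 0.25 in CIR-1 (10 of 12 passed) and from 0.24 to 0.27 in CIR-2 (12 of 12). Neutrophil and monocyte markers split in CIR-3, with Mpo, the granule enzyme gene, higher by 0.98 (SE 0.15, adjusted p = 0.000102) and the lysozyme gene Lyz2 different by -0.91 (SE 0.065, adjusted p = 8.5e-10). The part of those cell programmes in the Csf2ra and Il2ra differences was not tested.

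Over the 6 line comparisons and 85 exon-level probe sets, 432 of 510 differences had the sign of their gene, and 42 passed, 32 higher and 10 lower. Of all single probe sets, 0.429% to 1.6% passed in these comparisons. No reference share was computed for the sign count, in which Il2rg takes its sign from the mean of its own probe sets. In CIR-2 against CIR-1, where 0.429% of single probe sets passed, 1 probe set of Csf2rb and 1 of Il2rg did. Each of the 5 receptors that passed at gene level had at least 1 passing exon-level probe set in a comparison where it was called, and of those that did not, Il3ra, Csf3r and Il4ra had none in any line comparison.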

How the data were processed

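RNA of 27 samples was measured on Affymetrix mouse arrays, each deposited as gene-level and exon-level values. The authors made these log2 values with Affymetrix Expression Console, per the submitters' processing notes; the version, the algorithm, the log base and the genome build are not given in the sources used here, and log2 was read from the range of the deposited values (2.97 to 14.86 at gene level). The deposited normalization was kept and no filter on dim probe sets applied. Of several probe sets of a gene the one with the highest mean was used, and exon-level values were averaged per gene. In R 4.3.3 with limma 3.58.1, the model held a mean for each of the 9 groups over the 27 arrays, and its moderated two-sided tests were adjusted by Benjamini-Hochberg over all genes, with a threshold of 0.05. The number of arrays limits the precision.

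Numbers 1, 3 and 5 mark unstimulated and 2, 4 and 6 stimulated arrays. Deviations from group means were correlated across genes in all 12 consecutive pairs of a line (r from 0.283 to 0.633), all 18 same-numbered unstimulated pairs (0.136 to 0.763) and all 18 GFP-PFC pairs (0.211 to 0.615), so the numbers were taken to pair these arrays, by the data and not by the labels; Hyper-IL-6 arrays did not follow them. The block has 3 levels, and the fits on means of consecutive arrays were added after seeing the data.

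The receptors and all other lists were chosen with earlier results of these data known. All receptors are named; of another list, up to 4 passing genes a comparison; of genes alike, the 3 with the highest r over 9 group means, for receptors that passed between lines. Scripts were tested on simulated data.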

Additional observations from a re-analysis of the deposited data

How the results depend on the processing

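No result past the threshold changed direction under any alternative. Counts of receptors past the threshold, of 8, and of all genes past it moved as follows. With the replicate block, which pairs arrays by number, the genes called were 325 after Hyper-IL-6 (154 without it), 151 after GFP-PFC (44), 251 for Hyper-IL-6 against GFP-PFC (101), against parental cells 1654 for CIR-1 (979), 1329 for CIR-2 (757) and 1651 for CIR-3 (837), 552 for CIR-2 against CIR-1 (288), 1022 for CIR-3 against CIR-1 (558) and 1035 for CIR-3 against CIR-2 (464). The receptors called with the block were 1 after Hyper-IL-6 and 1 for Hyper-IL-6 against GFP-PFC (Il4ra, adjusted p = 0.000827 and 0.000962, though Hyper-IL-6 arrays did not follow the numbers), 3 in CIR-2 and 3 in CIR-3 against parental cells (2 each without it, Csf2rb and Il2ra gained), 2 for CIR-3 against CIR-1 (Csf2ra gained) and 4 for CIR-3 against CIR-2 (Epor and Il2ra gained), and 75 exon-level probe sets were called (42 without it). With the block as 12 pairs of line and number, 370 genes were called after GFP-PFC. The block changed 7 of 180 single-gene calls, all gains. Fitting the compared arrays only gave 31 genes after Hyper-IL-6, 66 for Hyper-IL-6 against GFP-PFC with 1 receptor, 608 in CIR-1, 460 in CIR-3 with 1 receptor, 368 for CIR-3 against CIR-1 with 0 receptors, and 0 receptors for CIR-2 against CIR-1. Without arrays numbered 1 and 2, 3673 genes and 2 receptors (Csf2ra and Il4ra) were called after Hyper-IL-6, 944 genes after GFP-PFC, 236 for Hyper-IL-6 against GFP-PFC, 4172 in CIR-3, 1288 for CIR-3 against CIR-1, and 1722 with 4 receptors for CIR-3 against CIR-2. Array weights gave 3468 genes and 1 receptor after Hyper-IL-6, 1071 after GFP-PFC, 1927 with 2 receptors for Hyper-IL-6 against GFP-PFC, 1724 (CIR-1), 1896 (CIR-2) and 4255 (CIR-3) against parental cells, 702 for CIR-2 against CIR-1, 1358 with 2 receptors for CIR-3 against CIR-1, 2174 with 4 receptors for CIR-3 against CIR-2, and 1 gene for GFP-PFC among lines. Quantile normalization called 1 receptor in CIR-3 and 2 for CIR-3 against CIR-1, and the filter on dim genes and exon-level values each called 2 in the latter. Means of consecutive arrays, chosen after seeing the data, gave 324 genes in CIR-1, 225 with 1 receptor in CIR-2, 250 with 1 receptor in CIR-3, 78 with 0 receptors for CIR-2 against CIR-1, 213 with 0 receptors for CIR-3 against CIR-1 and 151 with 1 receptor for CIR-3 against CIR-2. With the block added to those means, 0 receptors were called for CIR-2 against CIR-1 and 2 for CIR-3 against CIR-1. Fewer arrays entered the compared-only fits and the means; the cause of the other moves was not tested. Leaving out 1 array at a time gave 78 to 248 genes after Hyper-IL-6, 34 to 71 after GFP-PFC, 40 to 155 for Hyper-IL-6 against GFP-PFC, 793 to 1081 (CIR-1), 556 to 780 (CIR-2) and 656 to 2014 (CIR-3) against parental cells, 204 to 273 for CIR-2 against CIR-1, 435 to 636 for CIR-3 against CIR-1 and 293 to 440 for CIR-3 against CIR-2. The arrays that moved a count of genes by over 1.5 times were the unstimulated parental array 1 (71 after GFP-PFC, 2014 in CIR-3) and 3 (96 after Hyper-IL-6), the GFP-PFC parental array 2 (55) and 4 (57) for Hyper-IL-6 against GFP-PFC, the CIR-2 array 3 (293) and 6 (307) for CIR-3 against CIR-2, and the Hyper-IL-6 arrays 2 (248 and 155 in its comparisons with unstimulated and GFP-PFC cells), 4 (78 and 40) and 6 (79 and 42). Receptors called were then 0 after Hyper-IL-6, 1 in CIR-1, 2 in CIR-2, 1 to 2 in CIR-3, 0 to 1 for CIR-2 against CIR-1, 1 to 2 for CIR-3 against CIR-1 and 1 to 3 for CIR-3 against CIR-2, and 29 to 42 exon-level probe sets were called.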
